A study of Mus musculus with 6 samples.

Results

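The enzymes that write, copy and remove DNA methylation were examined in nascent blood cells of the mouse embryo. The members were chosen by name, as Dnmt1, Uhrf1, Dnmt3a, Dnmt3b, Dnmt3l, Tet1, Tet2, Tet3 and Tdg. All 9 were found among the 47517 gene symbols of the deposited tables, and 8 of them passed the filter for testing, which kept 16436 genes. The cells came from C57BL/6 embryos at embryonic day 10.5 that carried an Hlf-tdTomato knock-in, a red fluorescent reporter in the gene of a blood stem cell transcription factor. They were sorted as positive for the reporter and for c-Kit, the stem cell factor receptor, and as lacking CD45, a surface protein of leukocytes. Both groups share genotype, stage, strain, digestion (0.125% collagenase for 1 h at 37 °C) and sorting gate, and differ in the tissue of origin. Caudal cells were taken from caudal-half tissue of the embryo, and yolk sac cells from the extraembryonic yolk sac. Each tissue gave 3 libraries of 100 cells, and whether these came from separate embryos is not given. The p-values therefore cover only the variation among these libraries, which may be technical.

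In mammals a methyl group is placed mainly on cytosines that precede a guanine (CpG). DNMT3A and DNMT3B methylate new sites, with DNMT3L as a stimulating partner that has no catalytic activity of its own. UHRF1 recognises the hemimethylated sites left by replication and brings DNMT1 there to copy the mark. The TET enzymes oxidise methylcytosine, and TDG, a DNA glycosylase, cuts out the more oxidised forms so that repair restores cytosine. In adult blood, DNMT3A and TET2 are known as restraints on stem cell expansion and are often mutated in myeloid neoplasia.

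No member differed between the tissues beyond the spread of the libraries. Uhrf1, Dnmt1 and Dnmt3b were abundant in every library, the TET genes and Tdg were at moderate levels, and Dnmt3l was listed at 0. Dnmt3a was low in 5 libraries and more than 7 times higher in caudal replicate 2 alone. Of the 8 tested members, 0 passed limma's test in either direction. Among all 16436 tested genes 63 passed, which is 0.383% (57 or 0.347% higher in the caudal cells, and 6 or 0.0365% higher in the yolk sac). At an unadjusted p under 0.05 there were also 0 members, against 9.63% of all tested genes. The libraries of the tissues overlapped for every tested member, and they did not overlap for 15.6% of all tested genes. With 8 members, counts of 0 beside these shares do not set the members apart from other genes. Differences are given as the caudal mean less the yolk sac mean of log2(TPM + 1). They were positive for all 8 members with a median of 0.20, beside a median of 0.09 and 62.0% positive differences over all tested genes. Without yolk sac replicate 2 they were positive for 7 of 8 (median 0.10), against 52.4% of all tested genes, and 0 members passed, against 0.371%. The signs of Dnmt3b, Tet2 and Tet3 turned in some of the alternative analyses. The deposited values are labelled TPM, a unit that corrects for gene length, and levels of different genes are set side by side on that basis. The column is treated as a signal scaled per library, so such comparisons rest on its label.

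The maintenance pair, Uhrf1 and Dnmt1, varied together over the libraries and with genes of DNA replication, and is introduced by sequence. This was not particular to the pair. Dnmt3b varied in a similar way, at -0.58 log2 from its mean over the libraries in yolk sac replicate 2. Dnmt1 and Uhrf1 stood at -0.50 and -0.49 there. The median of all tested genes was also lowest in yolk sac replicate 2, at -0.23 log2 from the mean of the 6 libraries. A low value there was therefore not particular to replication genes, and shared control of the pair was not tested. Promoters of replication genes often hold sites for E2F transcription factors, with an 8-letter core. The windows of 250 bases before each RefSeq transcription start (GRCm38.p6) were searched on both strands for the letters TTTCCCGC, TTTCGCGC, TTTGCCGC and TTTGGCGC. All 9 members matched by symbol, with 16 windows. The letters were found in 2 of these, 1 of Dnmt1 and 1 of Uhrf1, and in 1.86% of all 32851 windows. The Dnmt3b window held 0 matches. The Dnmt1 site lies on the opposite strand to the gene, at chr9:20952824-20952853, upstream of the start at 20952623 and within an exon of another Dnmt1 transcript. The Uhrf1 site lies on the strand of the gene, at chr17:56304117-56304146, upstream of the start at 56304313 and outside annotated exons. The stretches of 30 bases are given 5′ to 3′ on the strand of each gene, with the matched letters in capitals. 
Dnmt1: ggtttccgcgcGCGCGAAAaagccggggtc
Uhrf1: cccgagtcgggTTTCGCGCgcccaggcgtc
Both hold the same 8 letters, in opposite orientation. A match of letters is a description and not evidence of binding. CpG dinucleotides, the substrate of these enzymes, numbered 26 in this Dnmt1 window and 30 in this Uhrf1 window, against a median of 6 over all windows. The other Dnmt1 windows held 2 and 7, and the other Uhrf1 window held 10. The matched letters themselves contain CpG, so matches are likelier in windows rich in it. The Tet2 window held 51, more than 99.9% of all windows.

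Before the values by gene, libraries that stood apart need naming. For yolk sac endoderm, an epithelium that secretes serum proteins, 15 markers summed to 812, 14176 and 13.6 TPM in yolk sac replicates 1 to 3. The caudal libraries had 22.1 to 31.96 TPM. Most of the caudal sums was the single gene Trf (26.3, 19.7 and 30.1 TPM in replicates 1 to 3). Trf was also most of the sum in yolk sac replicate 3 (10.2 TPM). The 6 primitive erythroid markers summed to 1357 TPM in yolk sac replicate 2 and to 5.04 to 16.4 TPM in the other libraries. In yolk sac replicate 2 the 9 blood stem and progenitor markers summed to 320 TPM, against 649 to 880 TPM elsewhere, so that results are also given without that library. Markers of primordial germ cells, in which Tet1, Dnmt3l and Dppa3 have known roles, summed to 3.14 to 9.59 TPM over 10 genes, with Dppa3 listed at 0 everywhere and Pou5f1 at no more than 0.0359 TPM. The 9 macrophage markers summed to 17.4 to 26.1 TPM and the 7 mesenchyme markers to 2.87 to 7.55 TPM. The sum of the 8 endothelial markers was higher in the caudal libraries (321 to 471 TPM) than in those of the yolk sac (105 to 197 TPM). By gene, 1 of the 8 (Cdh5) passed limma's test toward the caudal cells, against 0.347% of all tested genes. Egfl7 overlapped between the tissues. In bulk libraries of this kind, fewer cells of a type and less RNA per cell cannot be told apart.

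**Figure D1:**
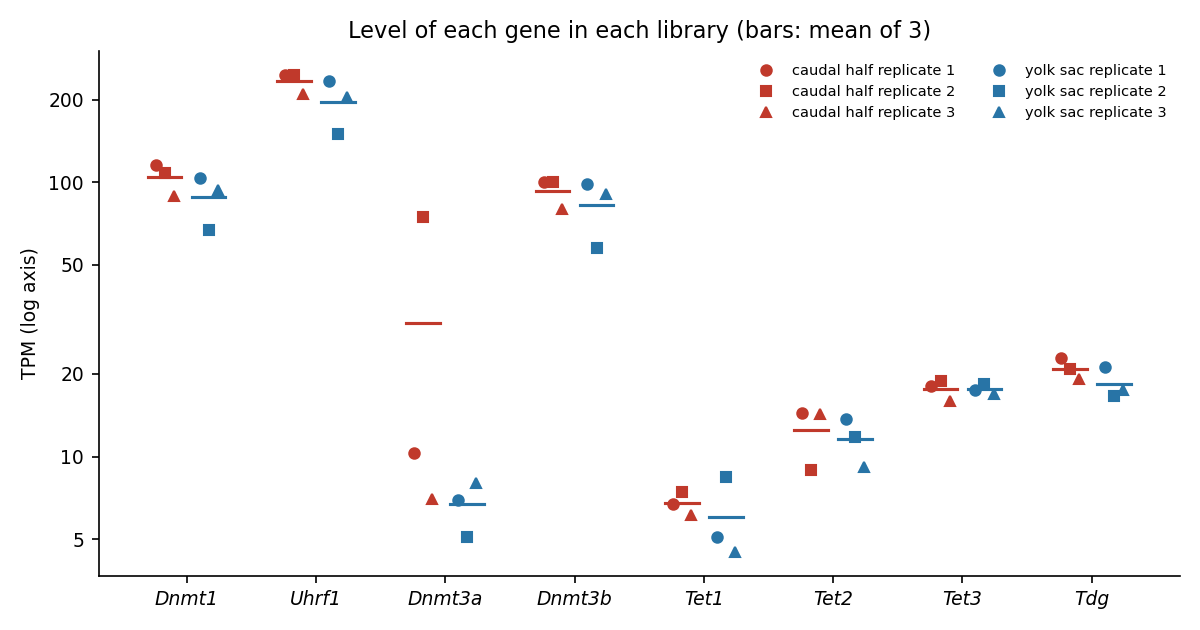
Levels of the 8 detected genes in each of the 6 libraries, in TPM on a log axis. Symbols give the replicate, colours the tissue and short bars the mean of 3 libraries. Dnmt3a in caudal replicate 2, at 75.0 TPM, sits far above its other libraries, while Tet3 lies between 16.0 and 18.8 TPM throughout.

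Uhrf1, which recruits DNMT1 to replicated DNA, had the highest level of the members in each library. It was at 247, 247 and 210 TPM in caudal replicates 1 to 3 and at 234, 150 and 204 TPM in yolk sac replicates 1 to 3. Yolk sac replicate 2 was the lowest, and the tissues overlapped. Between 1.22% and 2.24% of the genes at 1 TPM or more had a higher level, depending on the library. The caudal mean was 235 ± 21.4 TPM (SD, n = 3) and the yolk sac mean 196 ± 42.4 TPM (SD, n = 3). This gave a log2 difference of 0.28 (SE 0.20, 95% confidence interval -0.17 to 0.72, limma adjusted p = 0.709). Uhrf1 (ENSMUSG00000001228.14) lies on chromosome 17 (56303321 to 56323486, GRCm38).

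Dnmt1, the maintenance methyltransferase, was at 116, 108 and 89.0 TPM in caudal replicates 1 to 3. Yolk sac replicates 1 to 3 held 104, 66.8 and 93.5 TPM. As for Uhrf1, caudal replicates 1 and 2 were the highest and yolk sac replicate 2 the lowest, with overlap between the tissues. The log2 difference was 0.26 (SE 0.21, interval -0.22 to 0.73, limma adjusted p = 0.74). The ratio of Uhrf1 to Dnmt1 hardly varied. Uhrf1 had between 2.14 and 2.36 times the TPM of Dnmt1 in the 6 libraries, and the log2 ratio did not differ between the tissues beyond its spread (difference 0.02, exact two-sided permutation p = 0.8, n = 3 libraries per tissue). With 3 against 3 libraries the smallest possible p of this test is 0.1. Dnmt1 (ENSMUSG00000004099.15) lies on chromosome 9 (20907209 to 20959888).

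The lower values of both genes in yolk sac replicate 2 moved with those of S phase genes. That library was the lowest for 5 of the 8 tested members (Dnmt1, Uhrf1, Dnmt3a, Dnmt3b and Tdg), as for 45.0% of all tested genes. Dnmt1 and Uhrf1 stood at 0.678 and 0.687 times the mean of the other yolk sac libraries. The median ratio was 0.724 for 20 S phase genes such as those of the MCM helicase, 0.798 for all tested genes and 0.459 for the blood stem and progenitor markers. Without yolk sac replicate 2 the log2 difference of Uhrf1 was 0.10 (interval -0.27 to 0.46) and that of Dnmt1 0.07 (interval -0.32 to 0.47), with limma adjusted p of 0.923 and 0.956. The part of the endoderm and erythroid transcripts of that library in these differences was not tested. Set against the mean log2 level of the 20 S phase genes in the same library, Dnmt1 stood 1.03, 1.15 and 1.02 higher in the caudal libraries and 0.96, 0.87 and 0.97 higher in the yolk sac. On this relative scale its tissues did not overlap, as was the case, higher in the caudal cells, for 10.3% of all tested genes. Uhrf1 stood 2.12, 2.33 and 2.24 above the S phase genes in the caudal libraries and 2.13, 2.03 and 2.08 above them in the yolk sac, with overlap.

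**Figure D2:**
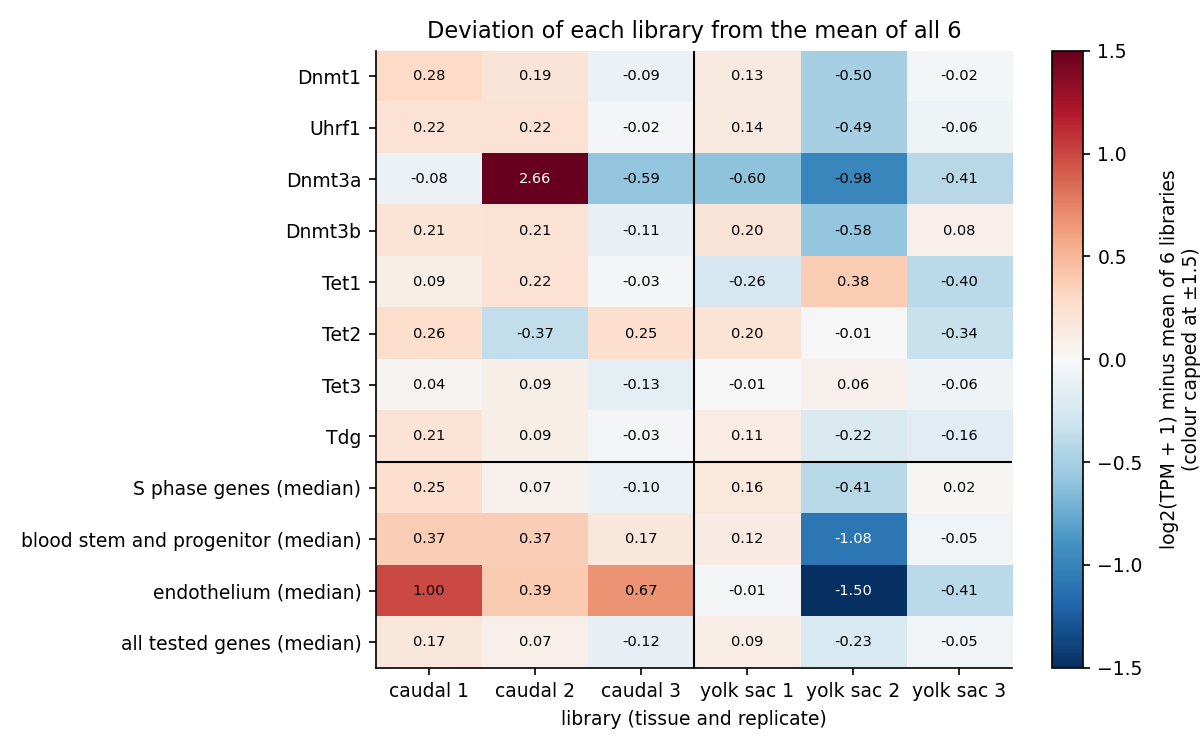
Deviation of log2(TPM + 1) in each library (columns) from the mean of all 6, for the 8 genes and, below the line, the median of 4 gene lists. Numbers give the deviation and colours are capped at 1.5 in either direction. Yolk sac replicate 2 is low for Dnmt1 (-0.50), Uhrf1 (-0.49), Dnmt3b (-0.58) and the S phase genes (-0.41) but not for Tet1 (0.38) or Tet3 (0.06).

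Dnmt3b was the more abundant de novo enzyme in every library. Caudal replicates 1 to 3 had 99.8, 100.1 and 79.8 TPM of Dnmt3b, and yolk sac replicates 1 to 3 had 99.0, 57.6 and 91.0 TPM. Apart from the low value of yolk sac replicate 2, its libraries lay between 79.8 and 100.1 TPM. Its log2 difference was 0.20 (SE 0.23, interval -0.32 to 0.73, limma adjusted p = 0.816). Without yolk sac replicate 2 the sign turned, to -0.03 (interval -0.42 to 0.36, adjusted p = 0.981). In each library Dnmt3b was just below Dnmt1, which it followed in the order of levels. Dnmt3b (ENSMUSG00000027478.15) lies on chromosome 2 (153649450 to 153687730).

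Dnmt3a, the de novo enzyme most studied in adult blood stem cells, was at 10.3, 75.0 and 6.99 TPM in caudal replicates 1 to 3. Yolk sac replicates 1 to 3 had 6.94, 5.10 and 8.03 TPM. Caudal replicate 2 thus had 7.26 times the level of the next highest library, while the other 5 libraries lay between 5.10 and 10.3 TPM and overlapped. The caudal mean of 30.8 ± 38.4 TPM (SD, n = 3) had an SD larger than itself, and the yolk sac mean was 6.69 ± 1.48 TPM (SD, n = 3). The log2 difference of 1.33 (SE 0.74, interval -0.36 to 3.01) did not pass (limma adjusted p = 0.624). Without caudal replicate 2 it was 0.33 (interval -0.42 to 1.07, adjusted p = 0.941), with a caudal mean of 8.66 TPM.

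Such a jump in that library was rare. Among 10290 tested genes with a mean of at least 5 TPM, Dnmt3a was the 1 gene that was at least 5 times higher in caudal replicate 2 than in any other library. There was 1 such gene in caudal replicate 1 and 1 in yolk sac replicate 1, 0 in caudal and yolk sac replicate 3, and 115 in yolk sac replicate 2. The antisense gene Dnmt3aos, whose exons overlap those of Dnmt3a, was at 0.859 TPM in caudal replicate 2 and between 0.70 and 1.41 TPM over the libraries. The pseudogene Dnmt3a-ps1 was at no more than 0.0104 TPM. Dnmt3a (ENSMUSG00000020661.15) lies on chromosome 12 (3806007 to 3914443) and has 18 annotated transcripts of 369 to 9685 bases in GENCODE M21. The deposited values are sums per gene, and which transcripts carried the high value was not tested.

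The genes most like Dnmt3a in profile also peaked in caudal replicate 2, but by less. Likeness was the root mean square difference of the log2(TPM + 1) profiles over the 6 libraries, each centred on its own mean, among 8218 genes. Mum1 (0.59), Ctdspl (0.63) and Smad2 (0.63) were the nearest, with 22.9, 20.5 and 24.8 TPM in caudal replicate 2. In the other libraries they lay between 4.02 and 11.2 TPM. For Uhrf1 the nearest were Dnajc18, Zdhhc4 and Mau2, at 0.028 to 0.032. These were the members with the smallest p, and nothing about shared function follows from such likeness.

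The balance of the de novo genes was set by caudal replicate 2. Dnmt3b had 9.67 and 11.4 times the TPM of Dnmt3a in caudal replicates 1 and 3 but 1.33 times in replicate 2. In yolk sac replicates 1 to 3 it had 14.3, 11.3 and 11.3 times. The log2 ratio was 1.12 lower in the caudal cells, a difference of -1.12 with an exact two-sided permutation p = 0.2 (n = 3 per tissue, adjusted p = 0.9 over the 5 ratios tested). Without caudal replicate 2 the difference was -0.18. Of the summed TPM of Dnmt1, Dnmt3a and Dnmt3b, Dnmt3a made up 26.5% in caudal replicate 2 and 3.31% to 4.58% in the other libraries.

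Dnmt3l, the catalytically inactive partner, was listed at 0 TPM in all 6 libraries and was not tested. It lies on chromosome 10 (78041947 to 78063622), with the identifier ENSMUSG00000000730.13. A processed pseudogene, Dnmt3l-ps1 on chromosome 2, was at 0.892 to 3.90 TPM. Its best alignment to a Dnmt3l transcript covered 1283 columns at 71.6% identity.

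Tet3 was the most abundant TET gene in each library and varied little over the libraries. It was at 18.1, 18.8 and 16.0 TPM in caudal replicates 1 to 3 and at 17.5, 18.4 and 16.9 TPM in yolk sac replicates 1 to 3. The highest library had 1.18 times the level of the lowest, and 57 of 10290 genes (0.554%) varied less by this measure. Yolk sac replicate 2 was not low for Tet3. The log2 difference was 0.00 (0.00237, SE 0.18), and its interval from -0.40 to 0.41 leaves changes of that size possible (limma adjusted p = 0.998). Tet3 (ENSMUSG00000034832.15) lies on chromosome 6 (83362373 to 83459084).

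Tet2, the TET enzyme best known from adult blood stem cells, was at 14.4, 8.93 and 14.2 TPM in caudal replicates 1 to 3. Yolk sac replicates 1 to 3 had 13.7, 11.8 and 9.15 TPM. Each tissue held both high and low libraries, and the ranges almost coincided. The log2 difference was 0.10 (SE 0.26, interval -0.49 to 0.68, limma adjusted p = 0.937). The lowest Tet2 value was in caudal replicate 2, the library with the highest Dnmt3a value. Tet2 (ENSMUSG00000040943.12) lies on chromosome 3 (133463679 to 133545139), and its exons overlap those of Gm42567, which was at no more than 0.425 TPM.

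Tet1, prominent in pluripotent and germ cells, had the lowest median of the detected members. It was at 6.74, 7.44 and 6.11 TPM in caudal replicates 1 to 3 and at 5.08, 8.45 and 4.49 TPM in yolk sac replicates 1 to 3. The highest and the lowest values both came from the yolk sac, with yolk sac replicate 2 at 1.77 times the mean of the other yolk sac libraries. Over all libraries the log2 difference was 0.19 (SE 0.27, interval -0.42 to 0.80, limma adjusted p = 0.862). Without yolk sac replicate 2 it was 0.42 (interval -0.07 to 0.91, adjusted p = 0.625). The remaining libraries then did not overlap, as was so in this direction for 14.7% of all tested genes. Tet1 was thus high in the library with the most endoderm and erythroid transcripts, and their part in its level was not tested. Tet1 (ENSMUSG00000047146.15) lies on chromosome 10 (62804570 to 62908996).

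The shares of the TET genes overlapped between the tissues. Tet3 made up 44.0% to 55.3% of their summed TPM, Tet2 25.4% to 39.2% and Tet1 14.0% to 21.9%. The differences of their log2 shares between tissues were 0.11 for Tet1, 0.02 for Tet2 and -0.07 for Tet3, with exact two-sided permutation p-values of 0.6, 0.9 and 0.5 (n = 3 per tissue, adjusted p = 0.9 for each over 5 ratios). The summed TET level was 30.5 to 39.2 TPM. The 3 expressed DNMT genes summed to 3.36 times that in yolk sac replicate 2, to 8.05 times in caudal replicate 2, and to 4.84 to 6.31 times in the other libraries.

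**Figure D3:**
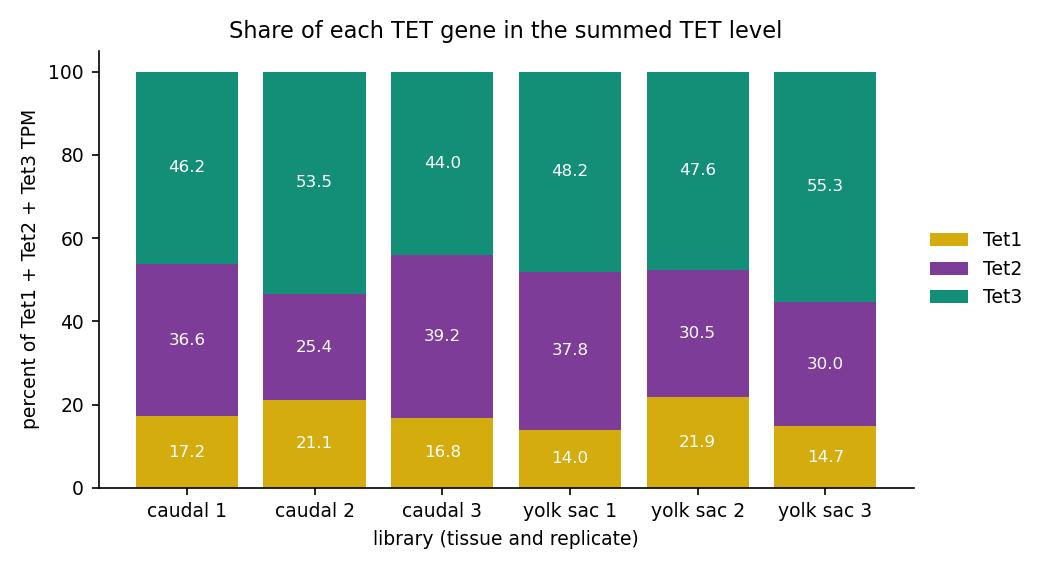
Share of Tet1, Tet2 and Tet3 in their summed TPM in each library, in percent, as stacked bars. Tet3 has the largest share in each library, from 44.0% to 55.3%.

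Tdg, the glycosylase that removes oxidised methylcytosine, was at 22.8, 20.9 and 19.1 TPM in caudal replicates 1 to 3. Yolk sac replicates 1 to 3 had 21.3, 16.6 and 17.4 TPM. The caudal values were mostly the higher ones, but yolk sac replicate 1 lay among them. Its log2 difference was 0.18 (SE 0.19, interval -0.25 to 0.61, limma adjusted p = 0.804). Tdg-ps, a processed pseudogene on chromosome 15 with 98.7% identity to a Tdg transcript over 2968 bases, was at 3.28 to 4.70 TPM, so that reads could have been split between them. Tdg (ENSMUSG00000034674.18) lies on chromosome 10 (82629828 to 82650799), and its exons overlap those of Glt8d2, which was at 0.609 to 1.71 TPM.

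By median level the order was Uhrf1 (222 TPM), Dnmt1 (98.6), Dnmt3b (95), Tdg (19.99), Tet3 (17.8), Tet2 (12.7), Dnmt3a (7.51), Tet1 (6.42) and Dnmt3l (0). Each gene was above the next in all 6 libraries, except in 5 of 6 for Tdg over Tet3 and Dnmt3a over Tet1, with yolk sac replicate 2 against the order, and in 5 of 6 for Tet2 over Dnmt3a, with caudal replicate 2 against it. The ranges over the libraries overlapped between Dnmt1 and Dnmt3b, Tdg and Tet3, Tet2 and Dnmt3a, and Dnmt3a and Tet1.

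**Figure D4:**
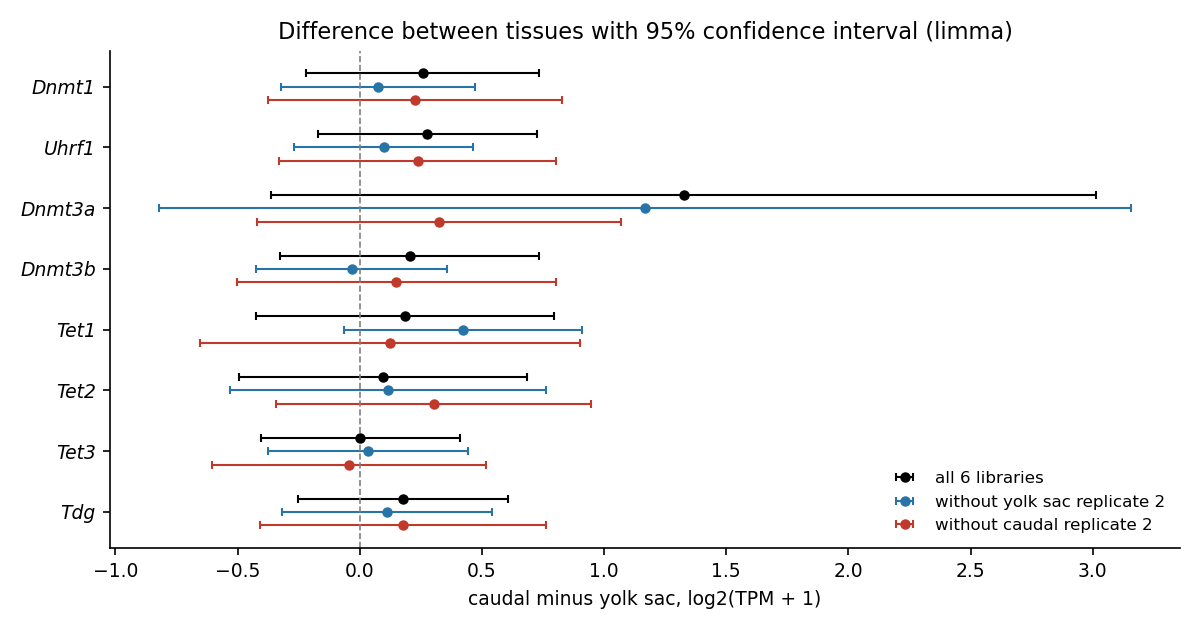
Difference between the tissues for each gene, in log2(TPM + 1) and positive where caudal cells were higher, with its 95% confidence interval from limma, for all 6 libraries (black), without yolk sac replicate 2 (blue) and without caudal replicate 2 (red). Each interval includes 0. That of Dnmt3a narrows without caudal replicate 2, from bounds of -0.36 and 3.01 (difference 1.33) to bounds of -0.42 and 1.07 (difference 0.33).

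Partners of these enzymes were examined in 6 lists of 76 genes in all, of which 72 were tested. Of these 72, 0 passed limma's test in either direction, against 0.383% of all tested genes, and 4 had an unadjusted p under 0.05, against 9.63%. Positive differences were seen in 53 of 72, with a median of 0.19, and in 41 of 72 without yolk sac replicate 2, with a median of 0.05. Over all tested genes the medians were 0.09 and 0.02.

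Among partners of maintenance, 0 of 9 tested genes passed, and 7 had positive differences (median 0.22). Without yolk sac replicate 2 there were 4 positive differences and the median was -0.04. Pcna, the replication clamp to which DNMT1 binds, was at 136, 151 and 131 TPM in the caudal libraries and 135, 91.9 and 91.2 TPM in the yolk sac (log2 difference 0.41, limma adjusted p = 0.55). Rbbp7, a histone chaperone, averaged 112 TPM in caudal and 146 TPM in yolk sac libraries (adjusted p = 0.607). Usp7, a deubiquitinase that stabilises DNMT1 and UHRF1, was at means of 80.6 and 66.7 TPM (adjusted p = 0.643). Dppa3, an inhibitor of UHRF1 in germ cells and the early embryo, was listed at 0. Of the 20 S phase genes, 0 passed and 17 had positive differences (median 0.18), against 11 without yolk sac replicate 2 (median 0.01). Cdt1, which licenses replication origins, had means of 45.8 and 36.2 TPM (limma adjusted p = 0.664). Gins1, a subunit of the GINS replication complex, was at 16.8, 6.68 and 6.93 TPM in the caudal libraries and 17.1, 11.6 and 13.9 TPM in the yolk sac, with overlap. Its log2 difference of -0.55 was opposite in sign (SE 0.35, limma adjusted p = 0.678). Chaf1a, a subunit of a histone chaperone that acts at replication forks, had means of 50.5 and 40.3 TPM (adjusted p = 0.689).

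In the list of methyl-CpG binding domain genes and zinc finger readers of methylated DNA, 0 of 9 tested genes passed. Membership of the list does not show that a protein binds methylated DNA, and binding was not tested. Mbd5, a member of the methyl-CpG binding domain family and the partner gene with the smallest p, was at 13.3, 6.13 and 10.4 TPM in the caudal libraries and 5.29, 3.28 and 2.22 TPM in the yolk sac. Its tissues did not overlap, as was so in this direction for 11.5% of all tested genes, and the log2 difference was 1.25 (SE 0.35, limma adjusted p = 0.272). Zbtb38, a zinc finger protein that binds methylated DNA, was at 2.42, 6.42 and 1.64 TPM in the caudal libraries and 8.002, 8.96 and 7.02 TPM in the yolk sac. It was lower in each caudal library than in any of the yolk sac (log2 difference -1.14, SE 0.38, adjusted p = 0.373). Separation in that direction, lower in the caudal cells, was found for 4.14% of all tested genes. Mbd6 had means of 13.8 and 9.22 TPM (adjusted p = 0.524).

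Base excision repair completes the removal that TDG begins. The list for it also holds other DNA glycosylases and the Gadd45 genes, and 0 of 15 tested passed (median difference 0.23, with 9 positive). Gadd45g, a stress-inducible gene linked to repair-based demethylation, was at 21.7, 18.1 and 9.64 TPM in the caudal libraries and 7.37, 7.58 and 8.39 TPM in the yolk sac (log2 difference 0.92, SE 0.30, limma adjusted p = 0.359). Each caudal library lay above the yolk sac, a separation found in this direction for 11.5% of all tested genes. Lig1, the replicative DNA ligase, was at 64.6, 63.9 and 49.2 TPM against 53.5, 23.4 and 34.4 TPM (adjusted p = 0.475), with overlap. Gadd45b had means of 4.75 and 2.63 TPM (adjusted p = 0.522), also without overlap.

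TET activity depends on 2-oxoglutarate, which isocitrate dehydrogenases supply, and methylation on S-adenosylmethionine from the methyl donor cycle. Of 7 tested TET partners and cofactor enzymes, 0 passed and 6 had positive differences (median 0.20), and 4 without yolk sac replicate 2. Idh2, the mitochondrial isocitrate dehydrogenase, was at 208, 199 and 152 TPM in the caudal libraries and 159, 135 and 146 TPM in the yolk sac (log2 difference 0.33, limma adjusted p = 0.605). D2hgdh, which breaks down the TET inhibitor 2-hydroxyglutarate, and the CXXC protein gene Cxxc5 had adjusted p of 0.706 and 0.785. Of 12 methyl donor cycle genes, 0 passed and 7 had positive differences (median 0.02). Shmt1, a serine hydroxymethyltransferase, was at means of 31.0 TPM in the caudal cells and 42.4 TPM in the yolk sac, and Mthfd1 at 52.5 and 65.4 TPM (adjusted p = 0.561 and 0.627). Ahcyl1, related to the hydrolase of S-adenosylhomocysteine, was at means of 70.2 and 57.2 TPM (adjusted p = 0.704). Mat2a, which makes S-adenosylmethionine, was abundant in both tissues, at 156 to 231 TPM over the 6 libraries, and was chosen for mention after its values were seen.

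**Figure D5:**
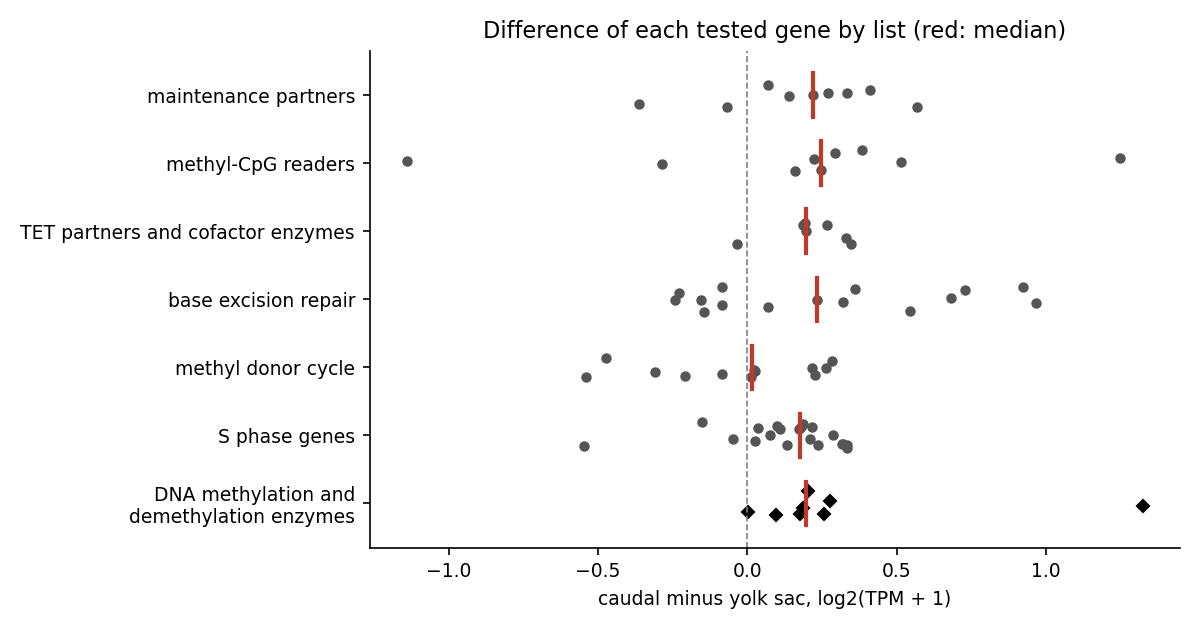
Log2 difference between tissues (caudal minus yolk sac) of each tested gene, 1 point per gene, in the 6 partner lists and, as diamonds, the 8 enzymes. Red bars give the median, which is 0.02 for the methyl donor cycle and 0.18 to 0.25 for the other lists. Dnmt3a, Mbd5 and Zbtb38 lie farthest from 0.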

How the data were processed

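RNA was measured in 6 libraries, 3 per tissue. Reads had been aligned with HISAT2 and quantified with StringTie on mm10, per the submitters' processing notes, while versions, annotation release and use of strand are not given in these sources. The deposited TPM column is treated as a signal scaled per library by the authors. In each library the unnamed assembled rows alone summed to 1000000 TPM and the annotated rows to between 555230 and 684549 TPM. Only annotated rows (ENSMUSG identifiers) were used. Of 47643 gene IDs, 47224 were in GENCODE M21 (GRCm38, the same assembly as mm10). Symbols of 27 IDs turned into dates were restored, and rows of the same symbol were summed. Between 15644 and 16975 genes reached 1 TPM. TPM keeps no depth, so the depth is unknown and no counting interval is given.

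Genes reaching 1 TPM in 3 or more of 6 libraries were tested on log2(TPM + 1) with limma 3.58.1 in R 4.3.3 (tissue as the only term, mean-variance trend, two-sided, Benjamini-Hochberg over all tested genes, threshold 0.05). That scale understates the change of low genes. The fit was tested on simulated data. Ratios of genes were compared by exact two-sided permutation, with SciPy 1.17.1. The members, lists, tests and alternatives were chosen with earlier results of these data known. From each partner list up to 3 genes were named by smallest p, with any that passed. Sequences are from RefSeq (GRCm38.p6) and coordinates from GENCODE M21. Gene identifiers are given with the version of the deposited values. GENCODE M21 lists Dnmt1 as ENSMUSG00000004099.16 and Tet1 as ENSMUSG00000047146.17.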

Additional observations from a re-analysis of the deposited data

How the results depend on the processing

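For the 8 tested enzymes, 0 passed limma's test in any alternative. These were pseudocounts of 0.1 and 5, no filter, a mean of at least 10 TPM (which left out Tet1), 4 scalings, array weights, robust empirical Bayes, a replicate block, each library left out and, chosen after seeing the data, yolk sac replicates 1 and 2 left out together and Tdg summed with Tdg-ps. The smallest adjusted p over them was 0.0663, for limma on Dnmt3a with array weights (log2 difference 2.49). Those weights were 4.44 for caudal replicate 2, which holds the high Dnmt3a value, and 3.24 for yolk sac replicate 3. The other libraries had weights of 0.23 to 0.83, so results with array weights rest mostly on 1 library per tissue. Signs held for Uhrf1, Dnmt1, Dnmt3a, Tet1 and Tdg. Over the libraries left out singly, the log2 difference of Dnmt3b ranged from -0.033 to 0.35, that of Tet2 from -0.049 to 0.30 and that of Tet3 from -0.044 to 0.068. Tet2 was at -0.014 with array weights, and Tet3 at -0.035 with quantile normalization and -0.087 with median centring. Over the same libraries left out, the difference between tissues in the log2 ratio of Uhrf1 to Dnmt1 ranged from -0.012 to 0.058 and that in the log2 ratio of Tet2 to the TET sum from -0.091 to 0.20.

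Over all genes, the 57 higher in the caudal cells and 6 higher in the yolk sac became 37 and 2 with a pseudocount of 5, 1 and 0 with no filter, 8 and 0 with a mean of at least 10 TPM, 774 and 182 with array weights, 13 and 0 without yolk sac replicates 1 and 2, and 2 to 55 and 0 to 6 over the libraries left out singly. With the replicate number as a block they were 0 and 0 by limma, with 1611 genes at an unadjusted p under 0.05. Deviations of same-numbered libraries from their tissue mean correlated at 0.02, -0.02 and 0.00 across genes. With 3 libraries per tissue, such correlations cannot decide whether same-numbered libraries were paired. Of the 72 tested partner genes, 4 passed toward the caudal cells with array weights, beside 774 of all 16436 tested genes, so that they did not stand apart. These 4 were Gadd45g, Lig1, Mbd6 and Neil3, and 0 partner genes passed in any other alternative. The cause was not tested. Depth is unknown, and 100 cells per library limit the precision of low values.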
